A study of Mus musculus with 9 samples.

Results

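The voltage-gated ion channel genes of the mouse spinal cord were described across naive mice and mice with experimental autoimmune encephalomyelitis (EAE). Members were chosen by gene symbol: rows starting with Kcn, or with Scn, Cacna or Hcn followed by a digit. Of 130 matching symbols, 6 were left out (Scn10a, Scn11a, Kcnq1ot1, Kcnd3os, Kcnmb4os1 and Kcnmb4os2), which left 124 members of 40879 symbols. They fell into 15 families, with 99 members counted as pores and 24 as auxiliary subunits. The 99 include 10 silent Kv subunits, which do not form channels alone. The symbol stem also gathers genes that voltage does not gate. Among these are the inward rectifiers (Kcnj), the two-pore-domain channels (Kcnk), the small-conductance calcium-activated channels (Kcnn) and Kcnrg, a regulator of potassium channels. They are kept as members and described under their own families. Scn7a, a sodium sensor, is counted with the sodium channel pores.

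Whole spinal cord from wild-type mice was sequenced in 3 groups of 3 libraries: naive mice, mice with EAE that received vehicle, and mice with EAE that received GV1001, a peptide derived from telomerase. EAE models multiple sclerosis: immune cells directed against myelin enter and inflame the cord. Neither strain, age, sex, immunising antigen, day of sampling nor the dose of GV1001 is given in the sources used here, nor whether replicates come from different mice, so p-values measure only the spread between these libraries. Reads came from transcript ends (QuantSeq 3′ libraries). Levels are given as counts scaled to the library total (CPM).

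Voltage-gated channels open when the membrane potential changes and shape the electrical signals of neurons. Sodium channels carry the upstroke of the action potential, calcium channels couple it to transmitter release, potassium channels repolarise the membrane, and HCN channels carry a cation current that opens on hyperpolarisation. In myelinated fibres of the cord, sodium channels gather at initial segments and nodes of Ranvier, and Kv1 channels sit beside the nodes under the myelin. Auxiliary subunits alter gating and bring the pores to the membrane.

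Total counts were 5247246 to 6174870 per library. A level of 3 counts, 0.486 to 0.572 CPM, is the floor that a count of 0 allows, and it covers counting error only. Enough counts for testing were present for 103 members. The other 21 stayed at or below a mean of 1.46 CPM, and 3 of them (Kcna10, Kcnj1 and Kcnk15) had no count in any library. Among the 103, 8 did not have 3 naive libraries at the minimum of 10 counts, Cacna1s, Kcnh6, Kcnk6 and Kcnn4 among them, and may have passed the filter through the diseased groups. The 20 neuron markers were all detected and summed to 14180 to 14410 CPM in the naive libraries. Libraries within the diseased groups were unlike each other. The 16 markers of microglia and macrophages summed to 8204, 1228 and 3274 CPM in vehicle replicates 1 to 3, 620.4, 2750 and 941.2 in the GV1001 replicates, and 471.6 to 568.3 in the naive libraries. Vehicle replicate 2 also held 4859 CPM of red blood cell genes, against 253.7 to 719.7 in the other libraries, and GV1001 replicate 1 held 5996 CPM of skeletal muscle genes, against 32.42 to 1606.

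The first comparison, EAE with vehicle against naive, asks how the disease changed the channels. Summed over all 124 members, the level was 7817, 7459 and 7643 CPM in the naive libraries and 5720, 7135 and 6108 in the vehicle libraries. It was 7243, 7046 and 7477 in the GV1001 libraries. All 3 vehicle libraries lay below all naive libraries, with means of 6321 ± 731 and 7640 ± 179 CPM (SD, n = 3), and replicate 1 lay farthest from them. The neuron markers took the same course, with 14380, 14180 and 14410 CPM in naive, 10070, 13480 and 11150 in vehicle, and 13190, 12720 and 13500 with GV1001. In bulk tissue, fewer cells of a type and less RNA per cell cannot be told apart. CPM are shares of the library total, so the CPM of a gene also moves with the RNA of all other genes.

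Gene by gene, 89 of the 103 tested members had a fitted change below 0 (86.4%), against 50.5% of all 15351 genes tested, and 14 lay above (13.6%, against 49.5%). Their median log2 fold change was -0.295, with quartiles of -0.43 and -0.115, and the median of all genes was -0.005. No member passed an adjusted p of 0.05 in the edgeR quasi-likelihood test. Over all genes the same test called 0% lower and 0.0195% higher (3 genes). At an unadjusted p under 0.05, edgeR placed 25 members lower (24.3%), where 8.06% of all genes were lower, and 3 members higher (2.91%), where 11.3% of all genes were higher. DESeq2 called 10 of the 108 members for which it gave an adjusted p, and limma-voom called 0 (share of all genes not given). The DESeq2 calls were 7 lower (Cacna1a, Hcn2, Kcnab2, Kcnj16 and Scn1a among them), where it called 1.61% of all genes lower, and 3 higher (Kcne1l, Kcnk6 and Kcnn4), where it called 4.92% higher. In 27 members (26.2%) every vehicle library lay below every naive library, against 9.50% of all genes. In 2 members, Kcnn4 and Kcnk6, every vehicle library lay above, against 13.6% of all genes. Both are among the 8 that lacked 3 naive libraries at the minimum count, so a higher level in a diseased group is in part a condition of their being tested.

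How many members passed depended on the libraries kept and on the filter. Without vehicle replicate 2, edgeR called 17 members lower and 3 higher, where it called 2.96% of all genes lower and 7.46% higher. Among the 17 were Cacna1a, Cacna2d1, Cacna2d2, Hcn3, Hcn4, Kcna2, Kcna6, Kcnab2, Kcnc1, Kcnc2, Kcnc4, Kcnip4, Scn1a, Scn2a, Scn2b and Scn8a. The 3 were Kcne1l, Kcnk6 and Kcnn4. Without GV1001 replicate 1, which enters only through the filter, the scaling and the shared estimate of the spread, Kcnab2 alone passed (adjusted p = 0.0475), where 0.183% of all genes were called lower and 0.329% higher. With no filter beyond 1 count, 3 members passed as lower, Kcnab2 and Scn1a among them (0.354% of all genes), and Kcnn4 as higher (1.67%).

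The direction also rested on the scaling. With libraries scaled to the summed counts of the neuron markers, the median of all genes moved to 0.346 and the members' median to 0.047. Then 61 of 103 members lay above 0, while of all 15351 genes only 2015 lay below 0. The members' median thus stayed below that of all genes. Under that scaling edgeR called 3 members, all higher: Kcnn4, Kcnk6 and Kcne1l. It called 0.0326% of all genes lower and 12.7% higher. The fold changes given below are therefore lower with the main scaling (TMM). For 9 of the 14 families with tested members, the median was not lower per neuron marker RNA. Median-of-ratios factors and plain library totals left the median of each family below 0 in this comparison.

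**Figure D1:**
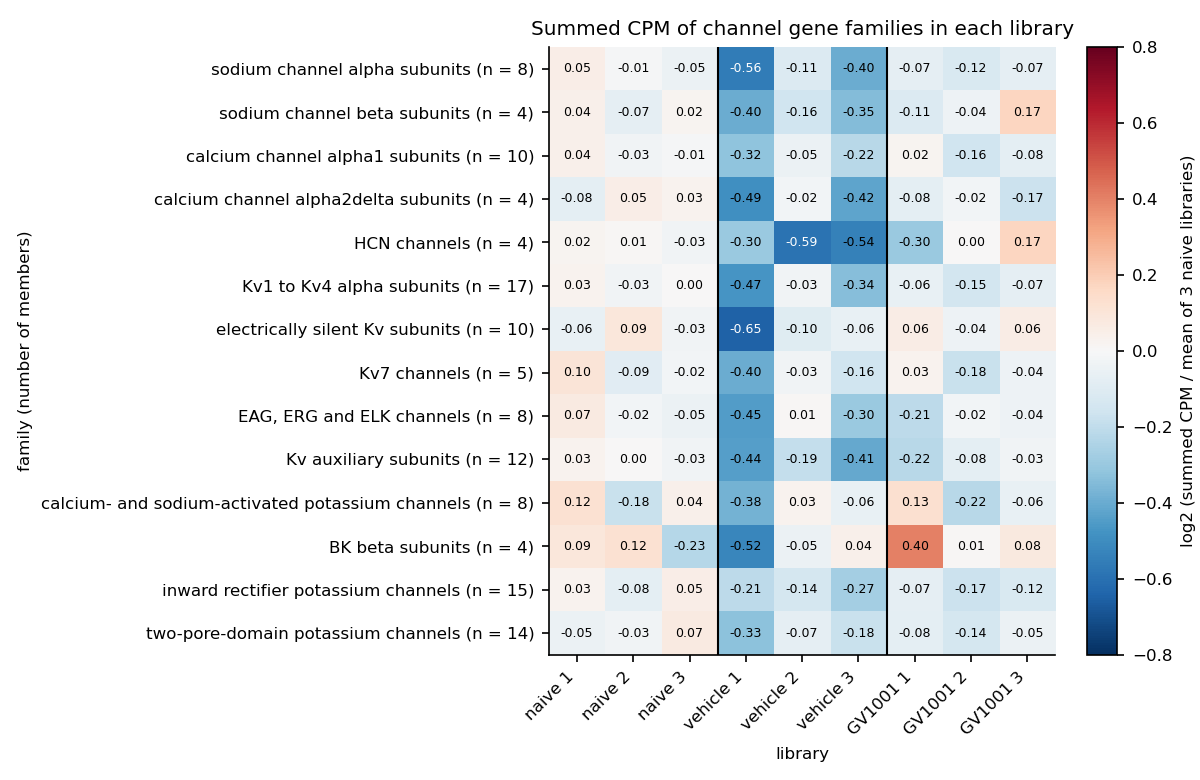
Summed CPM of each channel gene family (rows) in each of the 9 libraries (columns), as log2 of the ratio to the mean of the 3 naive libraries. Vehicle replicate 1 is below the naive mean in all 14 families drawn, between -0.65 and -0.21, and in vehicle replicate 2 the HCN family, at -0.59, stands out from the rest.

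The sequence just before the start of transcription is shown for 3 members that carry the main patterns: Scn1a and Hcn2, which were lower in vehicle, and Kcnn4, which was higher. Each is the 250 bases before the start, 5′ to 3′ on the gene's strand, from RefSeq on GRCm38.p6. Capitals mark a GC box (GGGCGG, or CCGCCC on the opposite strand) or a CCAAT box (CCAAT or ATTGG).
Scn1a: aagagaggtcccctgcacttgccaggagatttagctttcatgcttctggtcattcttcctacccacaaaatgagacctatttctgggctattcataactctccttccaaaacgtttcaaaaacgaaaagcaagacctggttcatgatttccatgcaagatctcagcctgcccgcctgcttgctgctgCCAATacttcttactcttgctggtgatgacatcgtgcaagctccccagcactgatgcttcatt
Hcn2: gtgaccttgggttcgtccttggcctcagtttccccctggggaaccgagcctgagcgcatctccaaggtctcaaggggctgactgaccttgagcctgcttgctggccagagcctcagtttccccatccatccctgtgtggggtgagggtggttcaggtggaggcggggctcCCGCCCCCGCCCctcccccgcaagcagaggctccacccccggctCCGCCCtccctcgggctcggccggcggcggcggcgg
Kcnn4: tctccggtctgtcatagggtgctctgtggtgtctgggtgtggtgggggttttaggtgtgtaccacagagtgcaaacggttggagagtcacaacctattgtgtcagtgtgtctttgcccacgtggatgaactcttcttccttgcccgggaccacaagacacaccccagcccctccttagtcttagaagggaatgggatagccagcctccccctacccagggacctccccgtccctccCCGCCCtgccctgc
The Scn1a stretch lies at chr2:66440838-66441087 on the minus strand, with 46.8% G and C, 1 CCAAT box and no GC box. That of Hcn2 lies at chr10:79716384-79716633 on the plus strand, with 70.4% G and C and 3 GC boxes. That of Kcnn4 lies at chr7:24370013-24370262 on the plus strand, with 58.8% G and C and 1 GC box. RefSeq windows of 300 bases (250 before the start and 50 after) were at hand for 89 members. A GC box was present in 54 of them (60.7%), against 38.2% of 27025 genes. A CCAAT box was present in 34.8% of members and 41.1% of genes, and TATAAA or its reverse TTTATA in 7.9% and 15.7%. The median G and C content was 58.0% in the members' windows and 52.7% in all windows. Such matches describe the letters only.

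Among sodium channel pores, all 6 tested members had values below 0 in vehicle against naive, with a median log2 fold change of -0.38 (-0.04 when scaled to neuron markers). Scn1a, a main pore of axons and fast-firing neurons, stood at 389, 350 and 363 CPM in naive, 258, 306 and 269 in vehicle, and 347, 305 and 329 with GV1001. The vehicle libraries lay below all naive libraries, and the change was -0.43 ± 0.10 (SE; adjusted p = 0.0703, edgeR). Scn8a, the pore of mature nodes, stood at 366, 318 and 325 CPM in naive and 232, 340 and 263 in vehicle. Here vehicle replicate 2 lay within the naive range and the groups overlapped (-0.31 ± 0.13, adjusted p = 0.23, edgeR). Scn2a, found in initial segments and unmyelinated axons, overlapped in the same way, at 108, 90.3 and 104 CPM in naive and 68.6, 104 and 74.4 in vehicle. Scn3a, expressed most in the developing nervous system, had the same mean in both groups (41.3 CPM).

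The 4 sodium channel beta subunits, which modulate the pores and act in adhesion, had a median of -0.18 (0.16 when scaled to neuron markers). In Scn2b and Scn4b the groups overlapped. Scn2b stood at 103, 83.6 and 92.4 CPM in naive and 65.2, 104 and 71.6 in vehicle (-0.24 ± 0.16). Scn4b was at 228 ± 6.21 CPM in naive and 216 ± 40.8 in vehicle. Scn3b had a value just above 0 (0.08 ± 0.20).

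Calcium channel pores had the smallest shift among the families, with a median of -0.08 over 9 tested members (0.26 when scaled to neuron markers). Cacna1a, the P/Q-type pore of presynaptic terminals, was the only one of the 9 whose vehicle libraries all lay below naive: 108, 116 and 94.5 CPM in naive against 79.9, 86.9 and 81.8 in vehicle, and 86.7, 98.2 and 98.1 with GV1001. Its change was -0.39 ± 0.10 (adjusted p = 0.0849, edgeR). The N-type pore Cacna1b (-0.26 ± 0.16), the R-type pore Cacna1e (-0.29 ± 0.18) and the T-type pore Cacna1g (-0.23 ± 0.17) overlapped between groups. Those of the L-type pores, Cacna1c and Cacna1d, were near 0, at -0.07 ± 0.16 and 0.00 ± 0.14. Of the alpha2delta subunits, which carry the pores to the terminal and bind gabapentin, Cacna2d1 stood at 110, 122 and 117 CPM in naive and 89.4, 106 and 86.1 in vehicle (-0.34 ± 0.12, adjusted p = 0.139, edgeR). Cacna2d3 was likewise below the naive range in every vehicle library (-0.42 ± 0.17), and Cacna2d2 overlapped (-0.27 ± 0.17). The median of this family was -0.30 (0.03 when scaled to neuron markers).

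The HCN family had the lowest median, -0.67, and Hcn2, Hcn3 and Hcn4 lay below the naive range in every vehicle library. It kept a median below 0 when scaled to neuron markers (-0.31). The summed level was 305.2, 301.4 and 293.9 CPM in naive, 243.7, 199.7 and 206.2 in vehicle, and 243.5, 299.7 and 337.5 with GV1001. Hcn2, which makes up 60.5% of the family's level over all libraries, stood at 194, 187 and 182 CPM in naive, 161, 98.7 and 115 in vehicle, and 132, 191 and 211 with GV1001. Unlike most members, Hcn2 was lowest in vehicle replicate 2 and highest in replicate 1 of that group. Its change was -0.61 ± 0.20 (adjusted p = 0.13, edgeR). Hcn3 was scarce, at 6.95, 7.94 and 5.59 CPM in naive, 2.33, 4.19 and 2.79 in vehicle, and 5.29, 8.29 and 9.88 with GV1001 (-1.17 ± 0.34, adjusted p = 0.102, edgeR). Hcn4 went from 15.8 ± 0.838 to 9.82 ± 3.12 CPM (SD, n = 3; -0.72 ± 0.22).

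The Kv1 to Kv4 pores were the most abundant family, summing to 2492 ± 56.5 CPM in naive, 2069 ± 327 in vehicle and 2340 ± 75.9 in GV1001 (SD, n = 3). Of 15 tested members 14 had values below 0, and the median was -0.36 (-0.01 when scaled to neuron markers). Kcnc4, a Kv3 pore, stood at 60.6, 60.4 and 54 CPM in naive, 38.4, 50.7 and 38 in vehicle, and 48.5, 45.7 and 58 with GV1001. Its vehicle libraries lay below all naive libraries (-0.49 ± 0.14, adjusted p = 0.099, edgeR). Kcnc2 did not overlap either (-0.42 ± 0.13), while Kcnc1, a Kv3 pore of fast-spiking neurons, did (-0.36 ± 0.12).

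The Kv1 pores that lie under the myelin beside the node had smaller values. Kcna1, the most abundant member of all, stood at 806, 748 and 777 CPM in naive and 576, 835 and 702 in vehicle. Vehicle replicate 2 was above every naive library and replicate 1 far below, so the groups overlapped (-0.18 ± 0.12, adjusted p = 0.462, edgeR). Kcna2, its partner in the same channels, had the same pattern at 376, 352 and 368 against 248, 385 and 294 CPM (-0.28 ± 0.14). Kcnb2, a Kv2 pore, was at -0.59 ± 0.23. Kcnd2, a Kv4 pore of the fast transient current in dendrites, stayed within its spread at 167 ± 22.7 CPM in naive and 158 ± 35.6 in vehicle (SD, n = 3).

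Silent Kv subunits do not form channels alone and modify Kv2 pores. Their median was -0.22 over 9 tested members (0.13 when scaled to neuron markers). Kcng4, the most abundant, overlapped between groups (-0.19 ± 0.14). Kcng1 and Kcng3 were at a few CPM and lay below the naive range in vehicle, with Kcng1 at 3.38, 4.66 and 3.43 CPM against 2.15, 2.10 and 2.09 (-0.88 ± 0.32). Kcns3 (-0.37 ± 0.24) and Kcns1 (0.31 ± 0.41) overlapped.

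Kv7 channels carry the M current that holds neurons near rest. Their 4 tested members had a median of -0.20 (0.14 when scaled to neuron markers). Kcnq3, a main neuronal pore of this current, overlapped between groups (-0.21 ± 0.11). In the EAG, ERG and ELK family the median was -0.38 over 6 members (-0.04 when scaled to neuron markers). Kcnh2, the ERG pore also known for repolarising the heart, was at -0.28 ± 0.13, Kcnh7 at -0.22 ± 0.14 and Kcnh8 at -0.80 ± 0.28.

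Kv auxiliary subunits had a median of -0.34 over 9 tested members (-0.01 when scaled to neuron markers). Kcnab2, the beta subunit that accompanies Kv1 pores along axons, stood at 328, 350 and 323 CPM in naive, 224, 252 and 201 in vehicle, and 227, 330 and 351 with GV1001. The vehicle libraries lay below all naive libraries (-0.59 ± 0.15, adjusted p = 0.0796, edgeR), while Kcna1 and Kcna2 overlapped. The difference between these genes was not tested. Kcnip1 (-0.41 ± 0.13) and Kcnip4 (-0.44 ± 0.14), calcium-binding partners of Kv4 pores, were also below the naive range in every vehicle library.

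**Figure D2:**
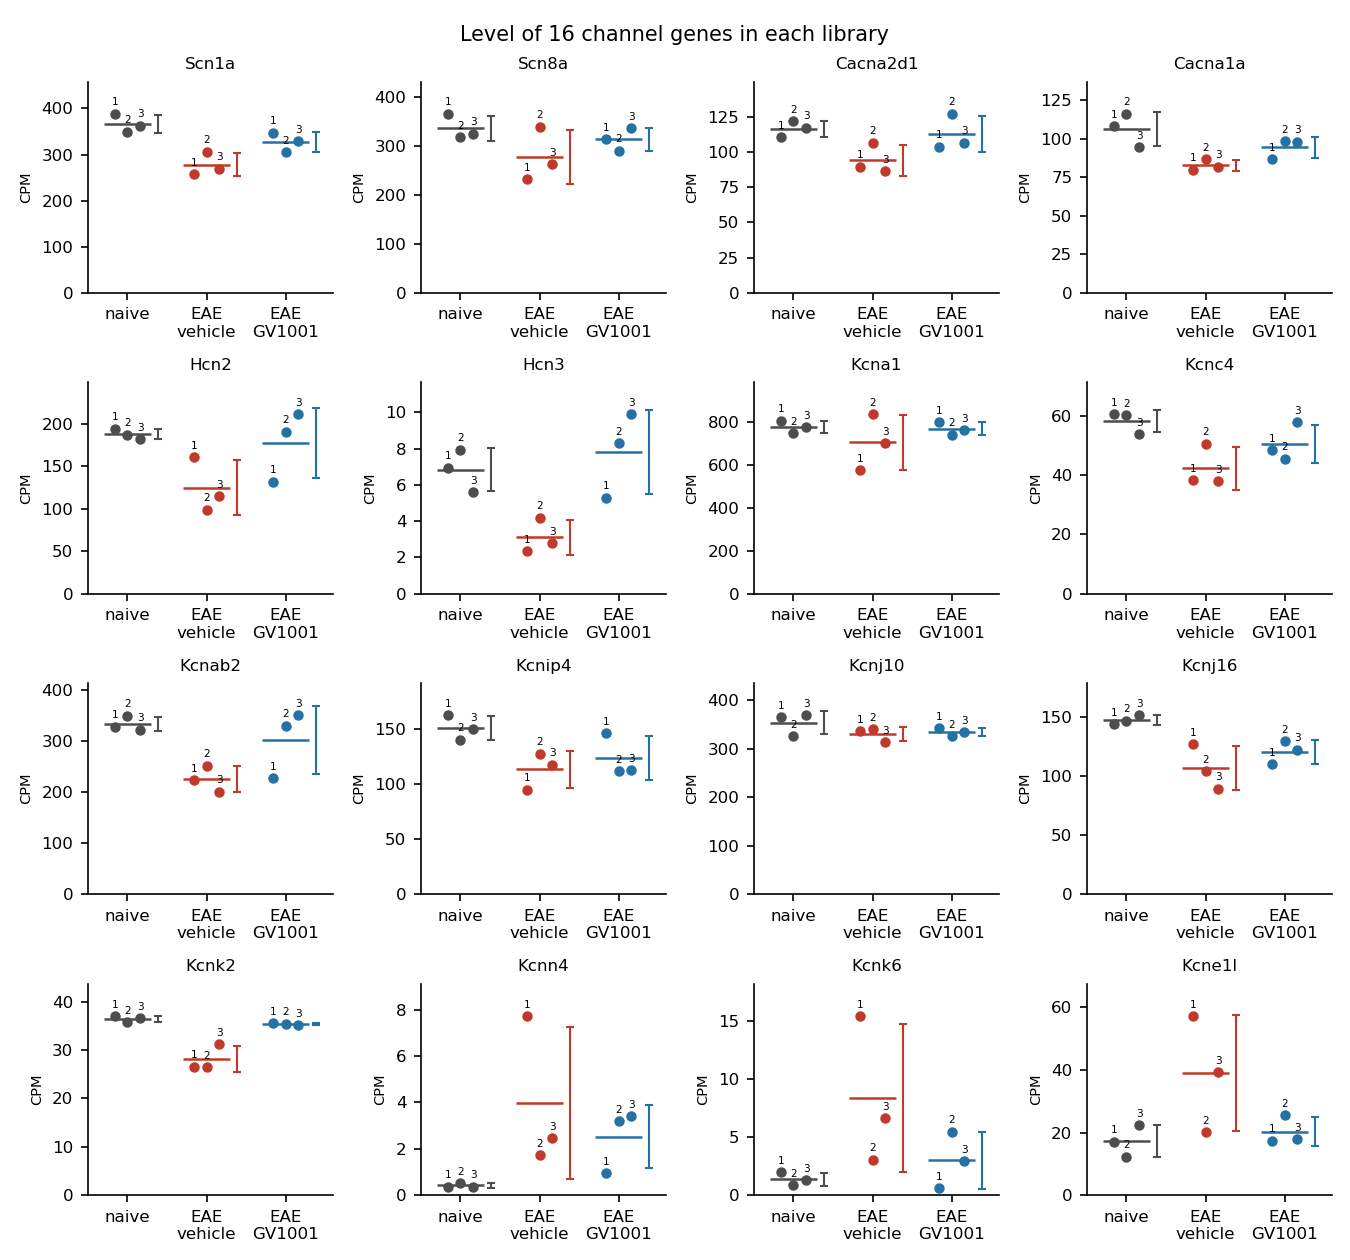
CPM of 16 channel genes in each library; dots are libraries numbered by replicate, horizontal lines are group means and bars beside them are 1 SD (n = 3). Kcnab2, Kcnip4 and Kcnc4 are below naive in all 3 vehicle libraries, Kcna1 and Scn8a are not, and Kcnn4, Kcnk6 and Kcne1l are highest in vehicle replicate 1.

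Calcium- and sodium-activated potassium channels had a median of -0.15 over 8 members (0.19 when scaled to neuron markers). Kcnma1, the large-conductance BK pore, makes up 65.8% of their level and overlapped between groups (-0.20 ± 0.14), as did the sodium-activated pore Kcnt1 (-0.09 ± 0.20). Of the small-conductance pores, which slow firing after a spike, Kcnn2 was at -0.65 ± 0.30 and Kcnn3 at 0.14 ± 0.21. BK beta subunits had a median of -0.20 over 4 members (0.15 when scaled to neuron markers). Among them Kcnmb2 stood at 15.3, 12.6 and 12.1 CPM in naive and 10.6, 10.9 and 10.6 in vehicle (-0.35 ± 0.18). Kcnmb4, the main BK beta subunit of neurons, overlapped (-0.03 ± 0.32).

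Inward rectifiers, which in glia clear potassium from around axons, had a median of -0.33 over 11 tested members (0.02 when scaled to neuron markers). Kcnj10, the Kir pore of astrocytes and oligodendrocytes, overlapped between groups, at 366, 326 and 369 CPM in naive, 337, 340 and 314 in vehicle, and 342, 326 and 334 with GV1001 (-0.13 ± 0.09, adjusted p = 0.495, edgeR). Kcnj16, which assembles with Kcnj10, stood at 144, 147 and 152 CPM in naive, 127, 104 and 89.6 in vehicle, and 110, 130 and 123 with GV1001. All 6 diseased libraries lay below naive, with a change of -0.49 ± 0.14 in vehicle (adjusted p = 0.0955, edgeR). Beside it, astrocyte markers summed to 5602 to 5928 CPM in naive and 6321 to 7131 in vehicle, and oligodendrocyte markers to 18180 to 20120 and 13450 to 17910. Their part in the value of Kcnj16 was not tested. Kcnj8, known from mural cells, was at -0.21 ± 0.29, and Kcnj2 at 0.51 ± 0.30.

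Two-pore-domain channels set the resting potential. Their median was -0.30 over 10 tested members (0.05 when scaled to neuron markers). Kcnk2, a channel opened by stretch and lipids, stood at 37.1, 35.7 and 36.6 CPM in naive, 26.6, 26.5 and 31.2 in vehicle, and 35.5, 35.4 and 35.1 with GV1001, so that the vehicle libraries lay below all 6 others (-0.41 ± 0.11, adjusted p = 0.0951, edgeR). Kcnk9, the most abundant of the family, and Kcnk1 overlapped between groups (-0.16 ± 0.12 and -0.26 ± 0.15). Kcnk3, an acid-sensitive channel like Kcnk9, lay below the naive range in every vehicle library (-0.43 ± 0.16).

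**Figure D3:**
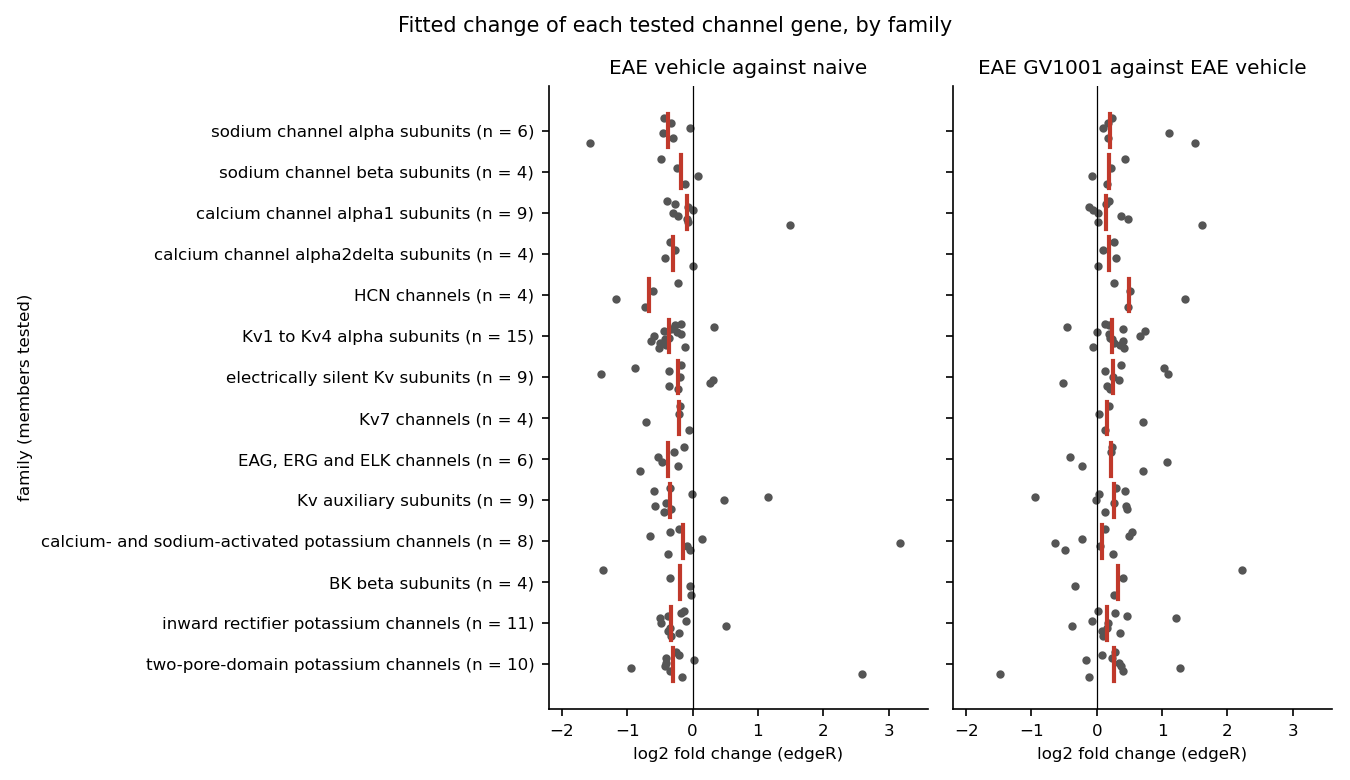
Fitted edgeR log2 fold change of each tested member (dots) by family, with the family median (red line), for vehicle against naive (left) and GV1001 against vehicle (right). Medians lie below 0 in all 14 families on the left and above 0 on the right with TMM scaling; scaled to neuron markers, 9 of the left medians lie above 0 and 5 of the right medians below 0.

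Fitted values above 0 were found in the 4 listed channel genes known from immune cells. Kcnn4, a calcium-activated pore of lymphocytes and activated microglia, stood at 0.356, 0.518 and 0.361 CPM in naive (7 counts in all), 7.72, 1.72 and 2.44 in vehicle, and 0.945, 3.17 and 3.40 with GV1001. Every diseased library lay above every naive one, and the fitted value in vehicle was 3.18 ± 0.83. Kcnk6, a two-pore-domain channel known in macrophages, stood at 1.96, 0.863 and 1.26 CPM in naive, 15.4, 3.05 and 6.62 in vehicle, and 0.567, 5.47 and 2.92 with GV1001 (2.59 ± 0.77). Since both reached the count minimum through diseased libraries, these values are a description. Within the vehicle group both genes were highest in replicate 1 and lowest in replicate 2, the order of the microglia and macrophage markers. The 12 T and B cell markers, of which Cd79a had no count, had that order too, at 86.91, 7.242 and 16.73 CPM in vehicle against 3.564 to 5.006 in naive. Whether these cells account for the values was not tested.

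Kcne1l, an auxiliary subunit of the Kcne family, stood at 17.1, 12.3 and 22.4 CPM in naive, 57.3, 20.2 and 39.2 in vehicle, and 17.4, 25.6 and 17.8 with GV1001. Vehicle replicate 2 lay within the naive range (1.16 ± 0.36, adjusted p = 0.111, edgeR). The groups overlapped in the other listed genes known from immune cells. Kcnk13, the potassium channel of resting microglia, was at 16.9 ± 2.13 CPM in naive and 17.6 ± 3.52 in vehicle (SD, n = 3), and Kcna3, the Kv1 pore of T cells, at 17.9 ± 3.68 and 22.9 ± 2.47.

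For some members 1 or 2 libraries set the group mean. Scn9a, a sodium channel of pain-sensing neurons, stood at 9.44, 55.4 and 9.38 CPM in naive, 6.82, 12.2 and 6.80 in vehicle, and 7.18, 46.5 and 18.9 with GV1001. The 10 markers of the dorsal root ganglion summed to 102.5, 309.5 and 92.92 CPM in naive, 49.92, 84.04 and 95.17 in vehicle, and 88.99, 305.9 and 154 with GV1001. Naive replicate 2 and GV1001 replicate 2 were thus high in both, and the untested member Kcnk18 had its only counts there (3 and 5). Scn7a, a sodium sensor of glia and Schwann cells, stood at 19.6, 47.6 and 20.6 CPM in naive, 11.1, 20.8 and 34.2 in vehicle, and 29.7, 62.9 and 49.1 with GV1001. It was highest in the same replicates of naive and GV1001 as Scn9a. The 9 Schwann cell markers did not share that order outside vehicle, at 962.3, 535 and 967.6 CPM in naive, 237.2, 975.9 and 1646 in vehicle, and 1583, 1640 and 2368 with GV1001. Cacna1s, the calcium channel pore of skeletal muscle, stood at 0, 0 and 1.44 CPM in naive, 2.15, 1.52 and 0.523 in vehicle, and 9.26, 3.00 and 1.13 with GV1001. The 14 muscle markers summed to 42.41, 52.48 and 371.3 CPM in naive, 195, 783.8 and 32.42 in vehicle, and 5996, 1606 and 586.2 with GV1001. The part of ganglion, nerve or muscle tissue in these values was not tested.

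**Figure D4:**
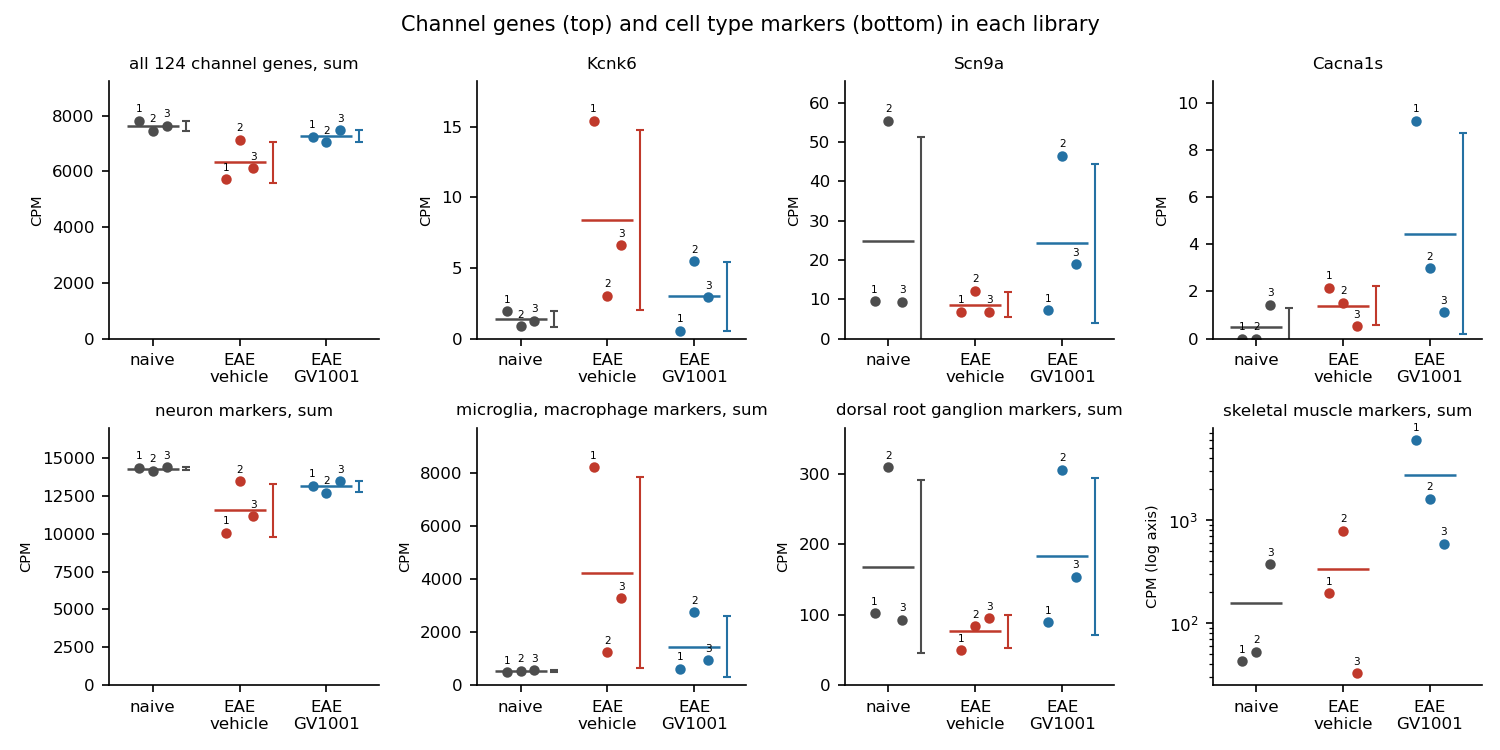
Top row, CPM of all 124 channel genes together, Kcnk6, Scn9a and Cacna1s in each library; bottom row, summed CPM of the neuron, microglia and macrophage, dorsal root ganglion and skeletal muscle markers (log axis for muscle). Dots are libraries numbered by replicate, lines are means and bars are 1 SD (n = 3, not drawn on the log axis); naive replicate 2 and GV1001 replicate 2 are the highest of their groups both in Scn9a and in the dorsal root ganglion markers below it.

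Genes whose proteins anchor or accompany the channels were taken from a list of 66 partners, of which 61 were tested. In vehicle against naive 50 of 61 had values below 0, against 50.5% of all genes, with a median of -0.291. The edgeR test called 0 of them. At an unadjusted p under 0.05, 27 were lower, against 8.06% of all genes, and 4 higher, against 11.3%. DESeq2 called 10 lower, against 1.61% of all genes, and 3 higher, against 4.92%. Cacng7, an auxiliary subunit of calcium channels and AMPA receptors, stood at 104.6, 121.0 and 102.7 CPM in naive, 52.97, 40.4 and 44.8 in vehicle, and 53.66, 80.4 and 90.37 with GV1001. Its change was -1.27 ± 0.19 (adjusted p = 0.0629, edgeR). Sptbn4, the spectrin under initial segments and nodes, went from 38.5 ± 4.16 to 24.2 ± 2.24 CPM (SD, n = 3; -0.70 ± 0.13), and Dlg4, a scaffold that binds Kv1 pores, from 194 ± 21.8 to 118 ± 11.5 (-0.74 ± 0.14). Hvcn1, the proton channel of phagocytes, was named after its values were seen. It went from 0.712 ± 0.484 to 11.7 ± 10.7 CPM, with 23.16, 1.906 and 9.936 CPM in vehicle replicates 1 to 3.

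The second comparison, GV1001 against vehicle within EAE, asks what the peptide changed. It shares the vehicle libraries with the first, so opposite signs in the comparisons are not independent of each other. Here 84 of 103 members had fitted values above 0 (81.6%), against 48.6% of all genes, and 19 had values below 0 (18.4%, against 51.4%), with a median of 0.224 and -0.009 for all genes. The edgeR test called 0 members and 0 of all genes (0% in either direction), and the smallest adjusted p among members was 0.528. DESeq2 called 0 members (0.0142% of all genes lower and 0.0426% higher) and limma-voom 0 (share of all genes not given). At an unadjusted p under 0.05, edgeR placed 22 members higher (21.4%, against 4.57% of all genes) and 3 lower (2.91%, against 4.51%), the 3 being Kcna3, Kcne1l and Kcnk6. Scaled to neuron markers, the median of all genes was -0.208 and that of members 0.04, and 5 of the 14 family medians lay below 0.

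In 17 members (16.5%) every GV1001 library lay above every vehicle library, against 5.44% of all genes. Among them, Kcnk2 had a fitted change of 0.33 ± 0.11, Kcng1 1.03 ± 0.31 and Kcnip3 0.46 ± 0.15, each with an adjusted p of 0.528 in edgeR. Hcn3 and Hcn4 separated in this way, and the HCN family had the highest median, 0.49 (0.28 when scaled to neuron markers). Hcn3 had the smallest p (1.35 ± 0.33, adjusted p = 0.528, edgeR), with vehicle libraries between 2.33 and 4.19 CPM and GV1001 libraries between 5.29 and 9.88. Hcn2 overlapped, because GV1001 replicate 1, at 132 CPM, lay below vehicle replicate 1, at 161. Kcnb2 (0.67 ± 0.23) and the inward rectifier Kcnj13 (1.21 ± 0.40), at 1.52 to 3.49 CPM in vehicle and 5.47 to 6.80 in GV1001, also separated.

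Several abundant genes of the first comparison did not separate in the second. Scn1a (0.24 ± 0.10), Cacna1a (0.19 ± 0.10), Kcnab2 (0.43 ± 0.15) and Kcnj16 (0.17 ± 0.14) overlapped between the EAE groups. GV1001 replicate 1 was the lowest of its group in Kcnab2 and Hcn2, at 227 and 132 CPM. Kcna3 was the 1 member with every GV1001 library below every vehicle library, at 24.2, 24.4 and 20.1 CPM in vehicle and 15.1, 19.9 and 15.1 in GV1001 (-0.45 ± 0.20, adjusted p = 0.546, edgeR), against 5.03% of all genes. With TMM-scaled library sizes or median-of-ratios factors its groups overlapped. Kcnk6 (-1.48 ± 0.65) and Kcne1l (-0.95 ± 0.35) overlapped. The order of GV1001 libraries in Kcnk6, 0.567, 5.47 and 2.92 CPM, was again that of the microglia and macrophage markers. In Kcnn4 it was not, since GV1001 replicate 3 (3.40 CPM) lay above replicate 2 (3.17). Of the 61 tested partners, 12 had values below 0, against 51.4% of all genes, the median was 0.167, and edgeR and DESeq2 called 0. At an unadjusted p under 0.05, edgeR placed 1 lower, against 4.51% of all genes, and 14 higher, against 4.57%.

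The third comparison sets the GV1001 libraries beside the naive ones. Of 103 members, 64 had values below 0 (62.1%), against 49.6% of all genes, and 39 above (37.9%, against 50.4%), with a median of -0.065 and 0.002 for all genes. Scaled to neuron markers the members' median was 0.089 and that of all genes 0.154. The edgeR test called 0 members and 0% of all genes in either direction, with a smallest adjusted p of 0.64. DESeq2 called 0 members (0.0210% of all genes lower, 0.216% higher), as did limma-voom (share of all genes not given). At an unadjusted p under 0.05, edgeR placed 4 members lower (2.96% of all genes) and 2 higher (4.35%). The 4 were Kcnh7 (-0.45 ± 0.14), Kcnk9 (-0.28 ± 0.12), Kcnip4 (-0.31 ± 0.13) and Kcnj16 (-0.32 ± 0.14), and the 2 were Cacna1s (3.10 ± 1.07) and Kcnn4 (2.54 ± 0.91). Kcnh7, an ERG pore of neurons, stood at 28, 29.2 and 26.7 CPM in naive and 19.5, 21.0 and 22.0 in GV1001, with vehicle between at 24.2, 28 and 21.3. It was thus lowest in the GV1001 group. In 10 members every GV1001 library lay below every naive library (9.71%, against 6.70% of all genes), among them Scn1a, Kcna6 (-0.23 ± 0.11) and Kcnh5 (-0.95 ± 0.43). In 3 members (Cacna1h, Kcnh6 and Kcnn4) every one lay above (2.91%, against 10.2%). Of the genes named as higher here, Cacna1s, Kcnh6 and Kcnn4 are among the 8 that lacked 3 naive libraries at the minimum count.

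Across the 3 groups, 83 members had a mean of 5 CPM or more. The vehicle mean was the lowest in 66 of them and the highest in 7. The GV1001 mean lay between the other means in 47 and was the highest in 26. Which vehicle library was lowest was uneven: replicate 1 in 60 of the 83 members, replicate 2 in 10 and replicate 3 in 13. No share over all genes stands beside these counts, so they describe the members only. The mean log2 ratio to naive over these members was -0.44, -0.077 and -0.217 in vehicle replicates 1 to 3, and -0.016, -0.06 and -0.025 in the GV1001 replicates.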

How the data were processed

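The authors deposited raw read counts per gene symbol for 9 libraries. Per the submitters' processing notes, FastQC, STAR and HTSeq were used with GRCm39. Versions, annotation release, strand setting and use of molecular identifiers are not given in the sources used here, so reads of Kcnd3, Kcnmb4 and Kcnq1 and of their antisense partners may not be told apart. Per the labels' protocols, RNA was extracted with TRIzol or a Maxwell kit, without saying which sample had which.

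After filterByExpr by group (minimum count 10) left 15351 genes, counts were scaled by TMM and tested by quasi-likelihood in edgeR 4.0.16, in 1 fit of all 9 libraries, with Benjamini-Hochberg adjustment over all genes and a threshold of 0.05. Standard errors came from the F statistic. Printed CPM use library totals without TMM. DESeq2 1.42.0 (unfiltered) and limma-voom (limma 3.58.1) ran beside it in R 4.3.3; figures used matplotlib 3.10.9. The procedure was run on simulated counts with planted changes, drawn gene by gene without effects shared within a library. That run does not bear on how many genes were called here. No 2 libraries of a group agreed within sampling noise (chi-square per degree of freedom 2.52 to 35).

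Members and gene lists were chosen with earlier results of these data known. Named were members past the threshold, the 10 smallest p per comparison, the most abundant, highest and lowest of each family, a fixed list of 40, and among partners the 3 smallest p and Cacng7. Cacna1h, Hcn4, Kcnc2, Kcng3, Kcnh6, Kcnk18, Scn2b and Scn3a were named after their values were seen. Some genes that the rule names are left out of the text. Alternatives covered test, scaling, filter, groups in the fit, a replicate block and leaving out each library.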

Additional observations from a re-analysis of the deposited data

How the results depend on the processing

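In vehicle against naive, edgeR called 0 members under median-of-ratios factors, library totals without TMM and the older form of its fit. It also called 0 with a filter of 5 CPM in 3 libraries and in a fit of the 2 groups, as did limma-voom. The share of all genes called under these alternatives is not given, so the counts of 0 have no background beside them. DESeq2 called 10, scaling to neuron markers 3, and no filter beyond 1 count 4 (3 lower, Kcnab2 and Scn1a among them, and Kcnn4 higher). Leaving out 1 library gave 0 to 20 calls, with 20 without vehicle replicate 2 and 1 without GV1001 replicate 1. In the other comparisons the count stayed 0 under every alternative run. Only for DESeq2 is a share of all genes given there.

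The members' median ranged from -0.381 to -0.208 (vehicle against naive), 0.128 to 0.326 (GV1001 against vehicle) and -0.079 to -0.037 (GV1001 against naive) when 1 library was left out. Scaled to neuron markers the medians were 0.047, 0.04 and 0.089, and GV1001 against naive was -0.037 with library totals. Members whose groups did not overlap, scaled to neuron markers, were 6 lower (1.13% of all genes) and 11 higher (35.1%) in vehicle against naive, and 5 lower (11.9%) and 8 higher (1.58%) in GV1001 against vehicle. This scaling moves the median of all genes to 0.346 and -0.208. With RLE factors, or TMM-scaled library sizes (added after the data were seen), 0 were lower in GV1001 against vehicle. The share of all genes with these 2 scalings is not given, so that count has no background beside it. With 1 library fewer, non-overlap is easier to reach: the counts were 28 to 61 lower (12.9% to 19.4% of all genes) and 3 to 5 higher (17% to 23%) in vehicle against naive, and 2 to 6 lower (7.76% to 14.6%) and 19 to 51 higher (8.03% to 14.6%) in GV1001 against vehicle. The 61 and the 51 were found without vehicle replicate 2. The cause of these moves was not otherwise tested.

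With the replicate number as a block the calls were 0 in all 3 comparisons, and the medians -0.288, 0.228 and -0.067. The share of all genes called with the block is not given. Of 9 same-number pairs of libraries, 2 had deviations correlated above 0.1, so the numbers were not taken to pair samples. Of the 23 members called under at least 1 alternative, 7 had a value of the opposite sign when scaled to neuron markers (Cacna2d1, Cacna2d2, Kcna2, Kcna6, Scn2a, Scn2b and Scn8a, at 0.0058 to 0.10 on the log2 scale), and 0 of the 23 under the other alternatives. These 7 were called without vehicle replicate 2 only. Depth limits members near the floor, such as Kcnn4 with 7 naive counts.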

Other observations

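Members too scarce to test were counted by group. Kcnh3 had 25 counts in naive, 11 in vehicle and 13 with GV1001. In the same order, Kcnj4 had 21, 8 and 16. Scn4a, the sodium channel pore of skeletal muscle, had 10, 5 and 12, and Kcna7, a Kv1 pore known in muscle, 0, 8 and 6. Kcnq1 had 15, 8 and 19, and may share reads with Kcnq1ot1. Kcnrg had 5, 3 and 5. These members were chosen after their counts were seen, other than Scn4a and Kcnrg.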
